A study of Mus musculus with 16 samples.

Results

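The transcriptome of activated mouse CD8+ T cells kept in melanoma supernatant was compared with that of the same kind of cells kept in the supernatant after methionine had been added to it. The supernatant came from B16F10, a mouse melanoma cell line. All cells were from C57BL/6 mice, had 2 days of activation by anti-CD3 and anti-CD28, and then spent 36 h in their medium. The groups were supernatant (4 libraries) and supplemented supernatant (4 libraries), 8 of the 16 libraries in the series. The other 8 were fresh medium without methionine (4 libraries) and with methionine (4 libraries), and they enter below only where the effect of methionine is set beside its effect in fresh medium. Every gene of the table was eligible, and the 12427 of 17159 genes (72.4%) with a mean of at least 10 depth-normalized reads over the 8 libraries were tested. The mean just inside that limit was 10.01 reads and the one just outside 9.997. The amount of methionine added, the way the supernatant was collected and the number and age of the animals are not given in the sources used here.

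Methionine is an essential amino acid that starts nearly every protein and is the precursor of S-adenosylmethionine, the methyl donor for DNA, RNA and histone methylation. Used methyl donor becomes homocysteine, which cells either turn back into methionine or pass into transsulfuration to make cysteine and glutathione. Activated T cells import methionine and other amino acids in large amounts, and shortage of an amino acid is sensed through uncharged transfer RNA, the kinase GCN2 and the transcription factor ATF4, and through mTOR complex 1.

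The libraries held 28324156 to 41592424 recovered reads in supernatant and 35233682 to 41772762 in supplemented supernatant, so that genes with a mean above 1000 reads had a median standard error of 0.0383 on the log2 scale and those between 10 and 100 reads one of 0.257. The first principal component of the 8 libraries carried 89.4% of the variance and separated the groups, and the second, with 2.59%, set replicate 1 of supernatant apart from the other 7; without that library 10330 genes were called. The 8 CD8 T cell markers were all detected, and their summed level was 135823 to 139188 in supernatant and 172772 to 185149 with methionine added. Other cell types' markers were low: the 8 melanoma markers in the table summed to 293 to 344 in supernatant and 252 to 300.4 in supplemented supernatant, 7 B cell markers to 749.7 to 879 and 386 to 408, and 8 myeloid markers to 249.6 to 276 and 186 to 254. The 6 CD4 T cell markers summed to 23369 to 25419 and 11101 to 13404, most of it Ctla4, which activated CD8 T cells also express. In these bulk libraries fewer cells of a type cannot be told apart from less RNA per cell, and the part of other cells in the results was not tested. The read strand used in counting is not stated, so overlapping and antisense transcripts may share reads, as may close paralogs such as the granzyme, Ly6c, Gbp, actin and Eef1a genes. Whether replicates came from separate animals or cultures is not given in the labels, so the p-values measure the spread between libraries, which may be technical.

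Methionine changed the level of most genes. With a Benjamini-Hochberg adjusted p below 0.05 in limma, 10381 of 12427 genes (83.5%) were called, 5185 (41.7%) higher and 5196 (41.8%) lower in supplemented supernatant. At least 2-fold changes were fewer, with 1362 genes (11.0%) higher and 1403 (11.3%) lower, and 197 genes (1.59%) moved at least 8-fold. The groups did not overlap, that is every library of one lay above every library of the other, for 9728 genes (78.3%). With so many genes called, a group of genes is described below by its direction and its median beside the median log2 fold change of all tested genes, which was -0.0043. Scaling the libraries to their total reads moved that median to -0.14, so a small change holds relative to the scaling. With that scaling 4308 genes were called higher and 6135 lower, so the even split of directions also depends on the scaling. From the deposited FPKM values, reads scaled to transcript length, 5112 genes were called, or 8429 with a block for the replicate number, and a named gene whose call was lost there is marked.

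**Figure D1:**
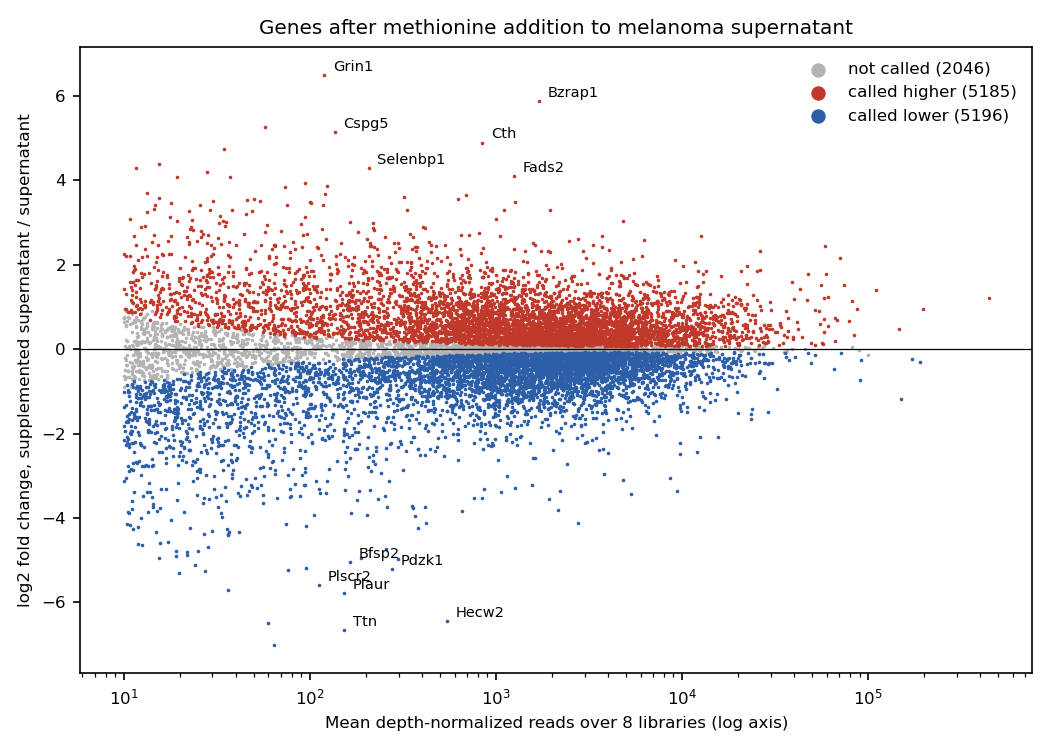
Log2 fold change of each tested gene after methionine addition to supernatant (vertical axis, supplemented supernatant over supernatant, 4 libraries each) against its mean depth-normalized level over the 8 libraries (horizontal log axis). Red points are the 5185 genes called higher, blue points the 5196 called lower and grey points the genes not called, and the genes of largest change with a mean of at least 100 reads are named.

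Genes of the methionine cycle changed in both directions, Mat2a down and Ahcy and Cth up. Mat2a, which makes S-adenosylmethionine from methionine (GRCm38 chromosome 6 from 72432799 to 72439558), stood at 36169.5, 35856, 36007 and 35008 in supernatant and 11236, 11092, 11488 and 11936 in supplemented supernatant, in depth-normalized reads. Every supplemented library lay far below every supernatant library, a log2 fold change of -1.64 ± 0.0301 (SE, n = 4 a group; limma adjusted p 6.22e-28). Ahcy, which clears the S-adenosylhomocysteine left by methylation, went the other way, with 3418, 3482, 3560.5 and 3287 in supernatant and 21834, 22184, 22716 and 21172 in supplemented supernatant (log2 fold change 2.68 ± 0.0320, adjusted p 3.48e-32). Here every supplemented library was the higher one. Of 16 tested genes of methionine cycle and salvage, 11 rose, 4 fell and 1 was not called, with a median of 0.39. Apip, an enzyme of the salvage of methionine from methylthioadenosine, rose by 1.76, whereas Cbs (-0.87), the entry enzyme of transsulfuration, and Mettl16 (-0.70), an RNA methyltransferase that acts on the Mat2a transcript, fell. The fall of Cbs rests on few reads, 32.3 ± 8.08 in supernatant and 17.5 ± 5.13 in supplemented supernatant (SD, n = 4), with a 95% interval of -1.43 to -0.31. Cth, the enzyme that releases cysteine in the last step of transsulfuration (chromosome 3 from 157894248 to 157925077), had 58.2, 56.3, 53.3 and 49.0 in supernatant and 1549, 1711, 1709 and 1579 in supplemented supernatant. Low in every supernatant library, it rose by 4.89 ± 0.0816 (adjusted p 6.24e-29), the largest change in the list.

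Amino acid transporters changed in both directions, and the rises included Slc43a2 and Slc7a5, which are among those that can carry methionine. Slc43a2, which imports large neutral amino acids, read 966, 1057, 1049 and 1048 in supernatant and 2309.8, 2249, 2293 and 2268 in supplemented supernatant (log2 fold change 1.15, limma adjusted p 1.12e-20), and Slc7a5, the large neutral amino acid exchanger, rose by 0.49, from 25513 ± 1237 to 35747 ± 1280.2 (SD, n = 4). Both were higher in every supplemented library. Among 21 amino acid transporters, 12 rose, 6 fell and 3 were not called (median 0.29). The largest rises were those of the cystine importer gene Slc7a11 (1.91), the glycine transporter gene Slc6a9 (1.71) and the cationic amino acid transporter gene Slc7a3 (1.68), and the largest fall was that of Slc7a7 (-1.56), a light chain of a basic amino acid exchanger. Polyamine genes, whose aminopropyl groups come from S-adenosylmethionine, were divided: 6 of 11 rose and 5 fell, with the polyamine oxidase gene Paox at 1.46 and the spermine oxidase gene Smox at -1.31.

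Most genes of sterol and fatty acid synthesis rose. The groups did not overlap for 24 of 26 cholesterol and 16 of 19 fatty acid genes, beside 78.3% of all tested genes. Of 26 cholesterol genes, 23 rose, 2 fell and 1 was not called, with a median of 1.33. Fdps, which builds farnesyl diphosphate (chromosome 3 from 89093588 to 89101959), had 1056, 1086, 1059 and 997 in supernatant and 8359, 9397, 8720.0 and 8077 in supplemented supernatant. All supplemented libraries lay above all supernatant libraries by a wide gap (log2 fold change 3.04 ± 0.0412, limma adjusted p 7.03e-31). Mvk, which phosphorylates mevalonate, rose by 2.38 and Hmgcs1, which makes HMG-CoA for the pathway, by 2.13, while Ggps1 (-0.47), the geranylgeranyl diphosphate synthase gene, fell, a call lost in the FPKM table without the block. Of 19 fatty acid synthesis genes, 15 rose, 1 fell and 3 were not called (median 0.91). The desaturase gene Fads2 led with 158, 150.1, 123 and 121 in supernatant and 2395, 2485, 2349 and 2218 in supplemented supernatant, a rise of 4.10 ± 0.0752 (adjusted p 6.74e-28), again with no overlap. Acsl3, which activates long-chain fatty acids, rose by 2.13 and Me1, which supplies NADPH, by 1.92. The one member that fell was Elovl1 (-0.12), a fatty acid elongase gene, and its call was lost in the FPKM table with and without the block.

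Sterol genes are known targets of SREBP2, which binds sterol response elements. The letters TCACNCCAC (N is any base, either strand) were searched in 300-base promoter windows from RefSeq (GRCm38.p6), 250 bases before to 50 after a start. They were present in 1 of 18 cholesterol genes that have a window (5.56%) and in 1.39% of tested genes with one. That gene was Hmgcs1, whose window is shown because it is the example of the match, with the letters in capitals (chr13:119690101-119690400, plus strand):
Hmgcs1: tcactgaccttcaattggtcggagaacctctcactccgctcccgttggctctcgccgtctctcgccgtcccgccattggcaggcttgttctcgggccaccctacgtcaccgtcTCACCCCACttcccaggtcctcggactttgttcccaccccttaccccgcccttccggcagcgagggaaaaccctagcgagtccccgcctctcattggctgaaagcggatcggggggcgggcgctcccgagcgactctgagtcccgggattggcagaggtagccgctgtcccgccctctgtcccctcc

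The reads of Hmgcs1 were 2004, 2084, 2079 and 1962 in supernatant and 8853, 10164, 8403 and 8318 in supplemented supernatant, and the supplemented libraries lay well above the others. No member of the fatty acid list had the letters in its window, out of 15 with a window. A match is a description of the letters only.

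Nearly every glycolysis gene rose. Of 22 glycolysis genes, 21 rose, none fell and 1 was not called, with a median of 1.19. Pgk1, the first ATP-yielding kinase of the pathway (chromosome X from 106187100 to 106203699), rose from 18224 ± 626 to 99622 ± 6392 reads (SD, n = 4), a log2 fold change of 2.45 (limma adjusted p 7.49e-30). Aldoc, an aldolase, had 374, 331, 341 and 376 in supernatant and 3584, 4083, 3470.0 and 3037 in supplemented supernatant and the largest rise of the list, 3.31 ± 0.0636. The muscle-type aldolase Aldoa rose by 2.15, and the lactate exporter gene Slc16a3 by 1.37. The gene not called was Hk2, the inducible hexokinase, named because it was the only one. Its levels were 5535, 5547, 5413 and 5453 in supernatant and 4889, 5086, 6343 and 5816 in supplemented supernatant, which overlap (log2 fold change 0.0044, 95% interval -0.0977 to 0.106), and with total-read scaling it was called lower (-0.13).

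Most genes of the hypoxia response rose, and Hif1a itself fell. Hif1a, the oxygen-regulated transcription factor subunit, had 26685, 23967, 24256 and 24993 in supernatant and 19534, 18913, 19499 and 20024 in supplemented supernatant, lower in every supplemented library (log2 fold change -0.36, limma adjusted p 3.71e-11), a call lost in the FPKM table without the block. Of 23 hypoxia genes, 16 rose, 6 fell and 1 was not called, with a median of 1.13. Bnip3, a mitophagy receptor, rose by 2.58, Ero1l, an oxidase that helps proteins fold in the endoplasmic reticulum, by 2.33 and Fam162a by 1.74. Bhlhe40 (-1.51), a transcription factor, Plod2 (-0.87), a collagen lysyl hydroxylase, and Narf (-0.68) fell. The core letters ACGTG of the hypoxia response element were in 14 of 17 hypoxia genes with a RefSeq window (82.4%), in 14 of 21 glycolysis genes (66.7%) and in 29.5% of tested genes, with CACGT as the other strand. The letters were in 30.2% of genes called higher and in 29.4% of those called lower, of those with a window. Hif1a, which fell, held the letters as well, and their part in the changes was not tested. Windows of 3 hypoxia genes that rose and hold the letters are shown as examples of the match, with the matches in capitals (GRCm38.p6, chr7:138909457-138909756 minus strand, chr16:36071512-36071811 minus strand and chr11:54100674-54100973 plus strand):
Bnip3: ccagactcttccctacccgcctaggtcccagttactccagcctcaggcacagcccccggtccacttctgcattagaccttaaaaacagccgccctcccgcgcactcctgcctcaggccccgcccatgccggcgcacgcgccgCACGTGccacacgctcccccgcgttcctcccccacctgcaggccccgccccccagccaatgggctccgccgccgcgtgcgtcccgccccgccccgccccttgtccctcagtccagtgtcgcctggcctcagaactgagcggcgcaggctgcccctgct
Fam162a: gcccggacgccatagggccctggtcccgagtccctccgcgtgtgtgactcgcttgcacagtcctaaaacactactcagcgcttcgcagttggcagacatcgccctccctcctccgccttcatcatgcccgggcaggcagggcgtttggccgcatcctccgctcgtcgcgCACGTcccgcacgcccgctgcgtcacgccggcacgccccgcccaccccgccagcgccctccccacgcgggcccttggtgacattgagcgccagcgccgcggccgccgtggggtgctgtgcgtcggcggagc
P4ha2: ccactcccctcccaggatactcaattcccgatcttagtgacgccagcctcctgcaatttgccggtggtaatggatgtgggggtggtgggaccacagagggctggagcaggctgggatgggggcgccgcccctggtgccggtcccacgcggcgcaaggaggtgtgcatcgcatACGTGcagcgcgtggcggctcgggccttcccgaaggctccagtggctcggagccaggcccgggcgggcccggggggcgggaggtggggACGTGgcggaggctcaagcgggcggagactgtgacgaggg

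The 2 matches of Bnip3 overlap on opposite strands, and P4ha2, which encodes a prolyl hydroxylase subunit and rose by 1.64, holds 2 that do not. Bnip3 read 1815, 1649, 1856 and 1871 in supernatant and 10781, 10978, 10671 and 10544 in supplemented supernatant, Fam162a rose from 1178 ± 14.3 to 3951 ± 350.4 and P4ha2 from 290.1 ± 35.3 to 904 ± 93.7 (SD, n = 4). None of these groups overlapped.

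Most mitochondrial genes rose, with lower medians than the glycolysis list. Nuclear genes of oxidative phosphorylation had 46 rises, 1 fall and 3 not called among 50, with a median of 0.47. Sdhb, the iron-sulfur subunit of complex II, rose by 1.78, Atp5c1, a subunit of ATP synthase, by 1.52 and Ndufv2, a complex I subunit, by 1.30. The gene that fell was Cycs, cytochrome c (-0.25), whose call was lost in the FPKM table without the block. Of 25 genes of the tricarboxylic acid cycle, 21 rose and 3 fell (median 0.56). Idh1, the cytosolic isocitrate dehydrogenase, went from 176 ± 14.8 to 728 ± 54.6 (log2 fold change 2.04) and fumarase gene Fh1 rose by 1.63. Falls were found for Ogdh (-0.36), Dlst (-0.32) and Pdhb (-0.18), which belong to the 2-oxoacid dehydrogenase complexes, the calls of Dlst and Pdhb being lost in the FPKM table without the block.

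**Figure D2:**
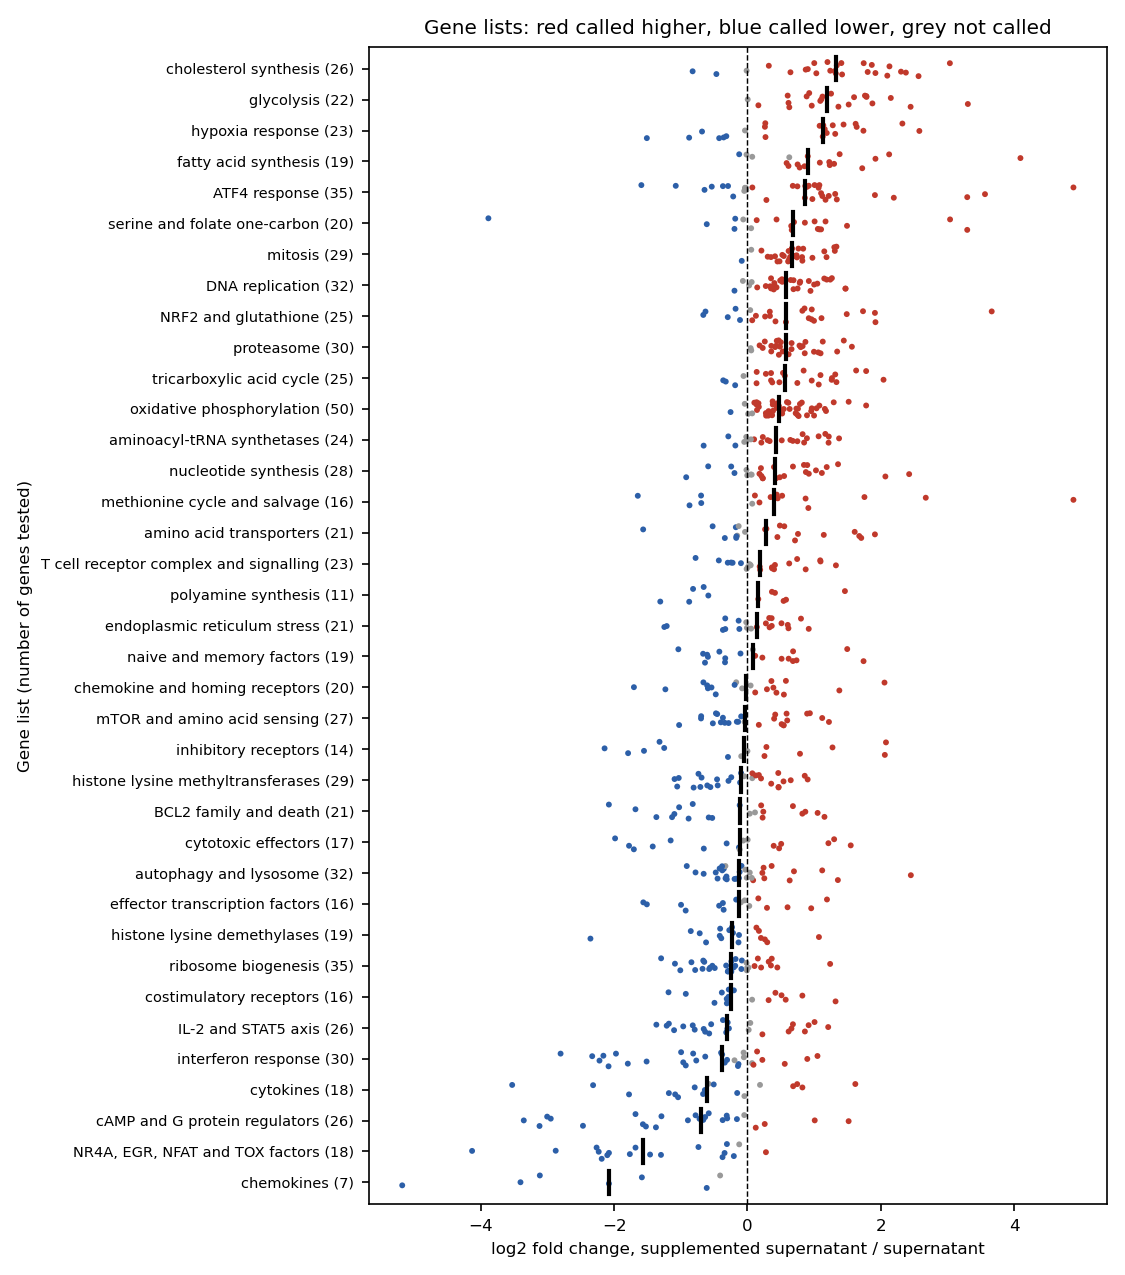
Log2 fold change after methionine addition to supernatant for every tested member of the 37 pathway lists (points, 1 per gene), with the median of each list as a black bar. The dashed line marks the median of all tested genes, and cholesterol synthesis has the highest list median (1.33) and chemokines the lowest (-2.08).

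Genes of the amino acid response did not move one way. Atf4 itself had 25083, 25222, 24744 and 24951 in supernatant and 24296, 23768, 25314 and 24249 in supplemented supernatant and was not called (-0.035, 95% interval -0.0950 to 0.0250, limma adjusted p 0.266), and its groups overlapped. It was called lower with total-read scaling (-0.17) and with quantile normalization (-0.27). Of 35 genes of the ATF4 list, 23 rose, 7 fell and 5 were not called, with a median of 0.87. Asns, the asparagine synthetase gene, had 9498, 9473, 9535 and 9176 in supernatant and 17050.0, 16985, 17856 and 16911 in supplemented supernatant (log2 fold change 0.87, adjusted p 1.62e-21). Slc7a11, the cystine importer gene, had 198, 149, 172 and 187 in supernatant and 591, 698, 681 and 691 in supplemented supernatant and Vldlr, a lipoprotein receptor gene, rose by 3.57. The falls included transcription factors of the same response, Atf3 (-1.59), Cebpg (-1.08) and Cebpb (-0.64), and Ddit3, which encodes the stress factor CHOP (3322, 3431, 3204 and 3294 in supernatant and 2917, 2995, 2825 and 2699 in supplemented supernatant; log2 fold change -0.21). The calls of Ddit3 and Cebpb were lost in the FPKM table, with and without the block.

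The letters TGATGNAA of the ATF4 composite element (TTNCATCA on the other strand) were in 11 of 30 ATF4 list genes with a window (36.7%) and in 2.93% of tested genes. They were in 3.30% of genes called higher and in 2.58% of those called lower, and their part in the changes was not tested. Atf3, which fell, was among the 11 list genes that hold the letters. Windows of 3 such genes that rose follow, matches in capitals, since they are the examples of the match (GRCm38.p6, chr19:27216770-27217069 plus strand, chr14:55540016-55540315 plus strand and chr3:50443564-50443863 minus strand):
Vldlr: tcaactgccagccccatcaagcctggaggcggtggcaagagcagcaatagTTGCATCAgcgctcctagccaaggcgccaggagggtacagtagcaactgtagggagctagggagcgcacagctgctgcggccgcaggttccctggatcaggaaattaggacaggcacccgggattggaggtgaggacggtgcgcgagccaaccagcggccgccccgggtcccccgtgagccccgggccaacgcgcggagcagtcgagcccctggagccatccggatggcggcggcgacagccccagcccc
Pck2: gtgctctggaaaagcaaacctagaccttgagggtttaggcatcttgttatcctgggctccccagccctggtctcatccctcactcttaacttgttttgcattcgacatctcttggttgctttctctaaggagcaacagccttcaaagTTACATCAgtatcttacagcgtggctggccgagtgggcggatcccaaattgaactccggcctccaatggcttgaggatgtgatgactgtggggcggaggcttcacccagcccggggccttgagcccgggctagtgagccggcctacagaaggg
Slc7a11: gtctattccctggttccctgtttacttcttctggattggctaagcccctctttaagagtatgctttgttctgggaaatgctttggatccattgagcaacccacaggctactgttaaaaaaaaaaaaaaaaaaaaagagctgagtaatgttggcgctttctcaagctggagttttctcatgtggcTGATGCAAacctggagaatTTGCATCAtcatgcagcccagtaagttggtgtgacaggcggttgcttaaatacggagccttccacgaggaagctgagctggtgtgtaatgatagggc

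Pck2, the mitochondrial phosphoenolpyruvate carboxykinase gene, rose by 2.197, from 2171 ± 64.8 to 9959.9 ± 407 (SD, n = 4). Vldlr has a second window without the letters.

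Serine and folate one-carbon genes, which recycle homocysteine to methionine, had 14 rises and 4 falls among 20 (median 0.68). Aldh1l2, a mitochondrial folate dehydrogenase (chromosome 10 from 83487450 to 83534140), had 226, 215, 192 and 185 in supernatant and 2094, 1903, 1941 and 2114 in supplemented supernatant, with no overlap and a rise of 3.30 ± 0.0656 (limma adjusted p 4.67e-27). Its cytosolic relative Aldh1l1 rose by 3.04 from a low level, 7.53 ± 4.72 to 61.2 ± 9.33 (SD, n = 4), and Mthfd1l by 1.49. Gldc, the glycine decarboxylase gene, fell from 62.0 ± 9.59 to 4.87 ± 4.71, a log2 fold change of -3.89 that depends on the added 1. The letters TGATGNAA were in 0 of 17 of these genes with a window. Aminoacyl-tRNA synthetases, which load amino acids on transfer RNA, rose in 17 of 24 cases and fell in 3, with Qars (1.38), Cars (1.22) and Dars (1.22) highest and the mitochondrial Yars2 lowest (-0.66). Endoplasmic reticulum stress genes were spread, with 11 rises and 7 falls among 21, among them Herpud1 (0.92), which rose, and Dnajb9 (-1.25) and Eif2ak3 (-1.21), which fell.

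Genes of cell division rose. Of 29 mitosis genes, 27 rose, 1 fell and 1 was not called (median 0.67), led by the spindle checkpoint kinase genes Bub1 (1992, 1902, 1964 and 1822 in supernatant and 4819.8, 4649.5, 4816 and 5111 in supplemented supernatant; log2 fold change 1.34) and Bub1b (1.30) and the cyclin gene Ccnb2 (1.31). The one member that fell was Mki67, the proliferation marker (-0.085) with overlapping groups, and its call was lost in the FPKM table, in limma without a trend, with no filter on low values and when any of 6 libraries was left out (all but replicate 1 of supernatant and replicate 3 of supplemented supernatant). DNA replication had 28 rises of 32 (median 0.59), with the polymerase gene Pold1 at 1.47 and Tyms, thymidylate synthase, at -0.19 as the gene that fell, a call lost in the FPKM table without the block. Nucleotide synthesis rose in 20 of 28 genes and fell in 4 (median 0.42). Impdh2, the rate-limiting enzyme of guanine nucleotide synthesis, had 4559.8, 4562, 4555 and 4455 in supernatant and 19014, 18972, 19902 and 18312 in supplemented supernatant (log2 fold change 2.07, limma adjusted p 4.23e-30), and Adssl1 rose by 2.43 and Hprt by 1.36.

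Ribosome biogenesis fell more often than it rose. Among 35 genes, 23 fell, 8 rose and 4 were not called, with a median of -0.24. Rrs1, an assembly factor of the large subunit, had 4931, 4819, 4848 and 4795 in supernatant and 1959.7, 1924, 2044 and 1975 in supplemented supernatant (-1.29 ± 0.0341, limma adjusted p 3.33e-24), and Utp20 fell by 1.09. Npm1, the nucleolar chaperone nucleophosmin, rose by 1.24. Myc, the transcription factor that drives many of these genes, fell, with 16713, 17765, 17748 and 16928 in supernatant and 12315, 11103, 10971 and 12126 in supplemented supernatant in groups that did not overlap (log2 fold change -0.57, adjusted p 3.59e-15). Proteasome subunits went up in 28 of 30 cases and down in none (median 0.57), Psmb3 most (1.57). Among the called genes with most reads, the elongation factor genes Eef1a1 and Eef2 rose from 266918 ± 939 to 623013 ± 15256 and from 134684 ± 1451 to 259184 ± 9152 (SD, n = 4; log2 fold changes 1.22 and 0.94). Quantile normalization, which gives the gene of most reads the same value in every library, put Eef1a1 at 0.

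IL-2 pathway genes went both ways, with more falls than rises. Il2ra, which encodes a chain of the IL-2 receptor (chromosome 2 from 11642807 to 11693193), had 34681, 35441, 35525 and 34290.0 in supernatant and 80637, 80661, 80188 and 82765 in supplemented supernatant, with a wide gap between the groups (log2 fold change 1.21 ± 0.0302, limma adjusted p 9.45e-25). Stat5b, a transcription factor under that receptor, rose by 0.66, from 3844 ± 74.8 to 6078 ± 144 (SD, n = 4), while Stat5a, its close relative, had 2730.3, 3003, 2946 and 2884 in supernatant and 2949, 2960.5, 2914 and 2888 in supplemented supernatant and was not called (0.019, 95% interval -0.0548 to 0.0932), though with total-read scaling it was called lower (-0.11). Of 26 genes on the IL-2 and STAT5 list, 16 fell and 8 rose (median -0.31). Cish, an inhibitor of cytokine receptor signalling that STAT5 induces, had 19874, 22218, 20948 and 20731 in supernatant and 9532, 9239, 8521 and 8893 in supplemented supernatant (log2 fold change -1.21). The survival gene Mcl1 fell by 1.37 and the cytokine gene Lta by 1.18, while Ccnd3 (1.01), a cyclin D gene, and Pim2 (0.92), a kinase gene, rose.

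Cytokine and chemokine genes mostly fell. Ifng, which encodes interferon gamma (chromosome 10 from 118441046 to 118445892), had 1509, 1579.7, 1679 and 1424 in supernatant and 122, 128, 139.9 and 143 in supplemented supernatant, lower in every supplemented library than in any supernatant library (log2 fold change -3.53 ± 0.0719, limma adjusted p 7.59e-27). Tnf, tumour necrosis factor, had 2949, 2998, 3125 and 2878 in supernatant and 2184, 1948, 2076 and 2216 in supplemented supernatant (log2 fold change -0.51, no overlap), and Csf2, which encodes GM-CSF, 475, 541, 557 and 406 in supernatant and 100.1, 92.6, 102 and 97.0 in supplemented supernatant (-2.32). Of 18 cytokine genes, 11 fell, 4 rose and 3 were not called (median -0.61), with Il4 (1.62), Tnfsf14 (0.83) and Il24 (0.75) among the rises. All 6 called chemokine genes fell, of 7 tested (median -2.08), and none rose. Cxcl10, an interferon-inducible chemokine, had 193, 215, 179.8 and 159.5 in supernatant and 3.85, 2.06, 3.91 and 8.66 in supplemented supernatant and the macrophage inflammatory protein genes Ccl3 and Ccl4 fell by 3.41 and 3.11. The fold of Cxcl10 (-5.18) depends on the added 1 at so few reads.

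**Figure D3:**
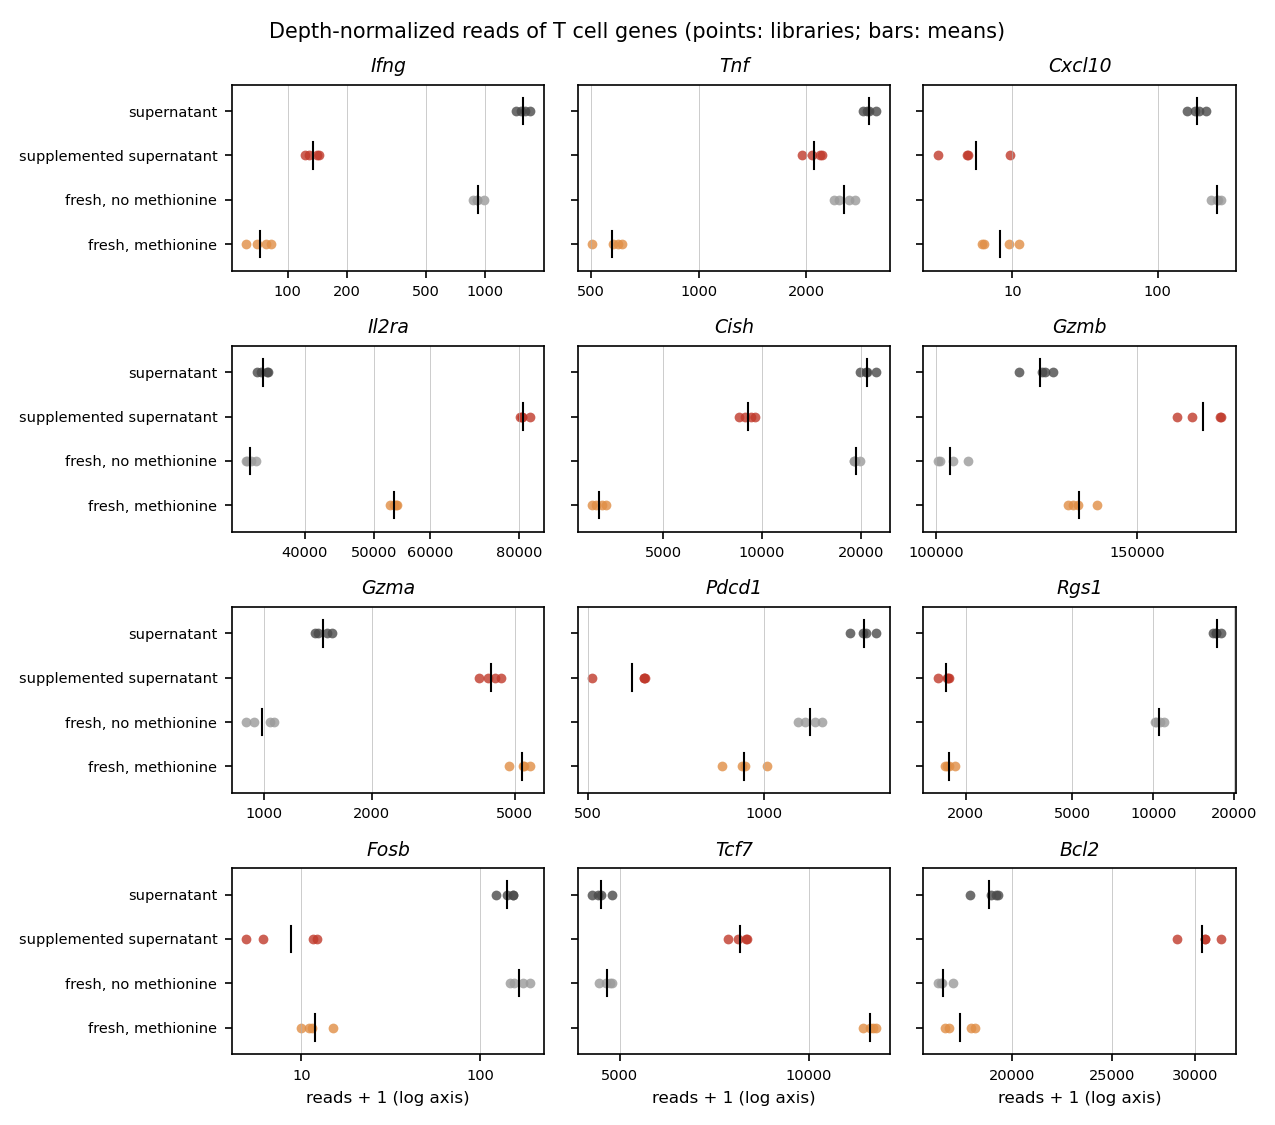
Depth-normalized level (horizontal log axis, value + 1) of 12 T cell and signalling genes in the 4 libraries of each of the 4 media. Each point is 1 library and each row within a panel is 1 medium; supplemented supernatant lies to the left of supernatant for Ifng, Rgs1 and Cxcl10 and to the right for Il2ra and Gzma.

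Cytotoxic effector genes went in both directions. Gzmb, granzyme B, had 123756, 126506, 124527 and 118077 in supernatant and 167599, 162555, 177904 and 177560.0 in supplemented supernatant (log2 fold change 0.48, limma adjusted p 1.11e-12), higher in every supplemented library. Prf1, perforin, had 1166, 1159.8, 1163 and 1046 in supernatant and 1026, 1198, 965 and 1005 in supplemented supernatant and was not called (-0.12, 95% interval -0.234 to 0.00126), though it was called lower with edgeR, with the replicate block, with total-read scaling, and without replicate 3 of supernatant or replicate 1 of supplemented supernatant. Gzma, granzyme A, rose by 1.55 from 1463 ± 71.6 to 4288 ± 258 and Gzmm by 1.30, while Gzmc (-1.99) and Gzmf (-1.70) fell. Of 17 genes of the list, 6 rose and 8 fell (median -0.12), and Fasl, the death ligand, fell by 1.78. 

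Receptors at the surface followed no single direction. Among 14 inhibitory receptors, 6 rose and 6 fell. Pdcd1, which encodes PD-1, had 1554, 1403, 1493 and 1476 in supernatant and 623, 625, 624 and 507 in supplemented supernatant (log2 fold change -1.32, limma adjusted p 1.96e-18), and Btla fell by 2.14, Cd200 by 1.79. Ctla4 fell by 1.25, from 19766 ± 1114 to 8359 ± 1079 (SD, n = 4), whereas Cd244 (2.08), Lair1 (2.06) and Cd160 (1.28) rose. Chemokine and homing receptors had 9 rises and 8 falls of 20, led by Itgae, the integrin CD103 that holds T cells in epithelia, with 533, 524, 602 and 606 in supernatant and 2378, 2375, 2389.7 and 2279.6 in supplemented supernatant (log2 fold change 2.06), with Ccr4 (-1.70) and Ccr9 (-1.23) lowest. Of 16 costimulatory receptors, 9 fell and 6 rose, Cd27 most (1.32) and Slamf1 least (-1.18).

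Most genes of the NR4A, EGR, NFAT and TOX list and of the cyclic AMP and G protein list fell. The first list also holds AP-1 genes of the Fos and Jun families and genes of the NF-kB pathway, and its counts cover them all. Of its 18 tested genes, 16 fell and 1 rose (median -1.57). The rise was that of Jund (0.28), an AP-1 gene, a call lost in the FPKM table without the block. Fosb, a subunit of AP-1, had 152, 151, 140.0 and 122 in supernatant and 10.6, 5.14, 3.91 and 11.3 in supplemented supernatant, Egr2, an early growth response factor, fell by 2.88 and Fos by 2.26. Of 26 genes of the cyclic AMP and G protein list, 21 fell and 4 rose (median -0.69). That list also holds dual-specificity phosphatase (Dusp) genes and shares a member with the first list. Rgs1, which quenches G protein signals of chemokine receptors (chromosome 1 from 144242296 to 144249242), had 17096, 16755, 17962 and 17107 in supernatant and 1722, 1571, 1705 and 1734 in supplemented supernatant, with all supplemented libraries far below the others (log2 fold change -3.36 ± 0.0349, limma adjusted p 3.25e-33), and Rgs2 (-3.12) and Rgs16 (-3.005) followed. T cell receptor components rose more than they fell, 12 against 6 of 23, with Cd3g (1.33), Lck (1.10) and Zap70 (1.09) highest, and that list's median (0.18) was below 0 with quantile normalization.

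Factors of naive, memory and effector states were divided. Tcf7, which encodes TCF-1 and marks memory and stem-like T cells, had 4612, 4857, 4515 and 4663 in supernatant and 7958, 7714, 7981 and 7429 in supplemented supernatant (log2 fold change 0.74, limma adjusted p 1.26e-18), higher in every supplemented library. Ly6c2 (1.74) and Ly6c1 (1.498) rose, and Foxo3 (-1.04), Bach2 (-0.67) and Zeb1 (-0.64) fell. Of 19 genes, 9 rose and 9 fell. Effector transcription factors fell in 8 of 16 cases, with Maf (-1.56), Bhlhe40 (-1.51) and Batf (-0.996) lowest, and Irf8 (1.19) highest. Cd8a, the alpha chain of the CD8 coreceptor, fell by 0.097, a call lost in the FPKM table with and without the block.

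Enzymes that use S-adenosylmethionine to methylate histones were not shifted as a list. Of 29 histone lysine methyltransferases, 12 rose and 15 fell (median -0.095). Dot1l, the H3K79 methyltransferase, had 3948, 4378, 3958 and 4139 in supernatant and 4439.8, 4268, 4144 and 4409 in supplemented supernatant, with overlap, and was not called (0.073, 95% interval -0.00195 to 0.147, limma adjusted p 0.0661), though it was called higher without replicate 1 of supernatant or replicate 2 of supplemented supernatant and had a negative value with total-read scaling (-0.059). Setd2, which trimethylates H3K36, had 10418, 10264, 10620.2 and 10595 in supernatant and 5129, 4970.4, 4949.6 and 5474 in supplemented supernatant (-1.03), and Suv420h1, an H4K20 methyltransferase, fell by 1.09, while Ezh2, the H3K27 enzyme, rose by 0.86. Demethylases, which remove the marks, had 13 falls and 6 rises of 19, with Kdm4d (-2.36) lowest and Kdm6b (1.07) highest.

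Interferon-inducible genes mostly fell. Of 30, 20 fell and 6 rose (median -0.39). Ifit1, which binds foreign RNA, had 400.4, 318, 383 and 345 in supernatant and 48.1, 55.5, 59.7 and 41.6 in supplemented supernatant (log2 fold change -2.80, limma adjusted p 9.96e-19), Ifit3 fell by 2.33 and Mx1 by 2.22, while the guanylate-binding protein genes Gbp7 (1.05) and Gbp2 (0.90) rose. Among death and arrest genes, Cdkn1a, the cell cycle inhibitor p21, had 23765, 27174, 26242 and 24308 in supernatant and 5612, 5524, 6603 and 6314 in supplemented supernatant (-2.08), and Fas, a death receptor, fell by 1.68. Bcl2, an anti-apoptotic protein, had 19299, 18243, 19103 and 19391 in supernatant and 30706, 30712, 28859 and 31843 in supplemented supernatant (0.68), higher in every supplemented library, a call lost in the FPKM table without a block. That list had 8 rises and 11 falls of 21. Its 3 largest rises, up to 1.16, were those of pro-apoptotic members and exceeded that of Bcl2. Antioxidant genes of the NRF2 and glutathione list rose in 19 of 25 cases (median 0.58), led by the quinone reductase gene Nqo1, with 13.3, 18.8, 22.3 and 13.7 in supernatant and 241, 228, 235 and 190.5 in supplemented supernatant (3.67).

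Autophagy and mTOR lists had medians near that of all genes, -0.12 and -0.043. Of 32 autophagy and lysosome genes 17 fell and 10 rose, with the autophagosome gene Wipi1 (2.45) highest. Of 27 mTOR and amino acid sensing genes 13 fell and 12 rose. Lamtor2, part of the lysosomal anchor of mTOR complex 1, rose by 1.22, Rragd by 1.12 and Rheb, the activating GTPase, by 0.94, while Deptor, an mTOR inhibitor, fell by 1.02.

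The largest changes lay partly outside these lists. Grin1, an NMDA receptor subunit (chromosome 2 from 25291181 to 25319187), had 3.06, 1.17, 1.59 and 1.14 in supernatant and 269, 271, 211 and 199.997 in supplemented supernatant (log2 fold change 6.48 ± 0.262, limma adjusted p 9.97e-20). Bzrap1 had 54.1, 61.0, 53.3 and 57.0 in supernatant and 3416, 3791, 3127 and 3118 in supplemented supernatant (5.87), so its rise rested on more reads. Cspg5 (5.14), Selenbp1 (4.28), Cyp11a1 (3.65), which makes pregnenolone from cholesterol, and Mcf2l (3.61) rose too. The falls were led by Ttn, the giant muscle protein (chromosome 2 from 76703980 to 76982547), with 256, 307, 332 and 321 in supernatant and 1.92, 4.11, 1.96 and 0.866 in supplemented supernatant (-6.65), and by Hecw2, a ubiquitin ligase, with 1098, 1066, 1110.5 and 1038 in supernatant and 6.73, 12.3, 20.5 and 9.52 in supplemented supernatant (-6.45 ± 0.185). Plaur, the urokinase receptor (-5.79), Plscr2 (-5.58), Pdzk1 (-5.21), Bfsp2, a lens filament protein (-5.04), Slc4a4, a bicarbonate transporter (-4.97), Tmprss6 (-4.96), Zfp750 (-4.73) and Slc1a2, a glutamate transporter (-4.24), fell as well. Folds of genes with a few reads in one group are understated and depend on the added 1. Long non-coding and structural transcripts of high read number also moved, among them A130040M12Rik (-1.19), Actb (-0.30) and Actg1 (-0.22), beta and gamma actin, whose fall was not called for Actg1 in the FPKM table.

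**Figure D4:**
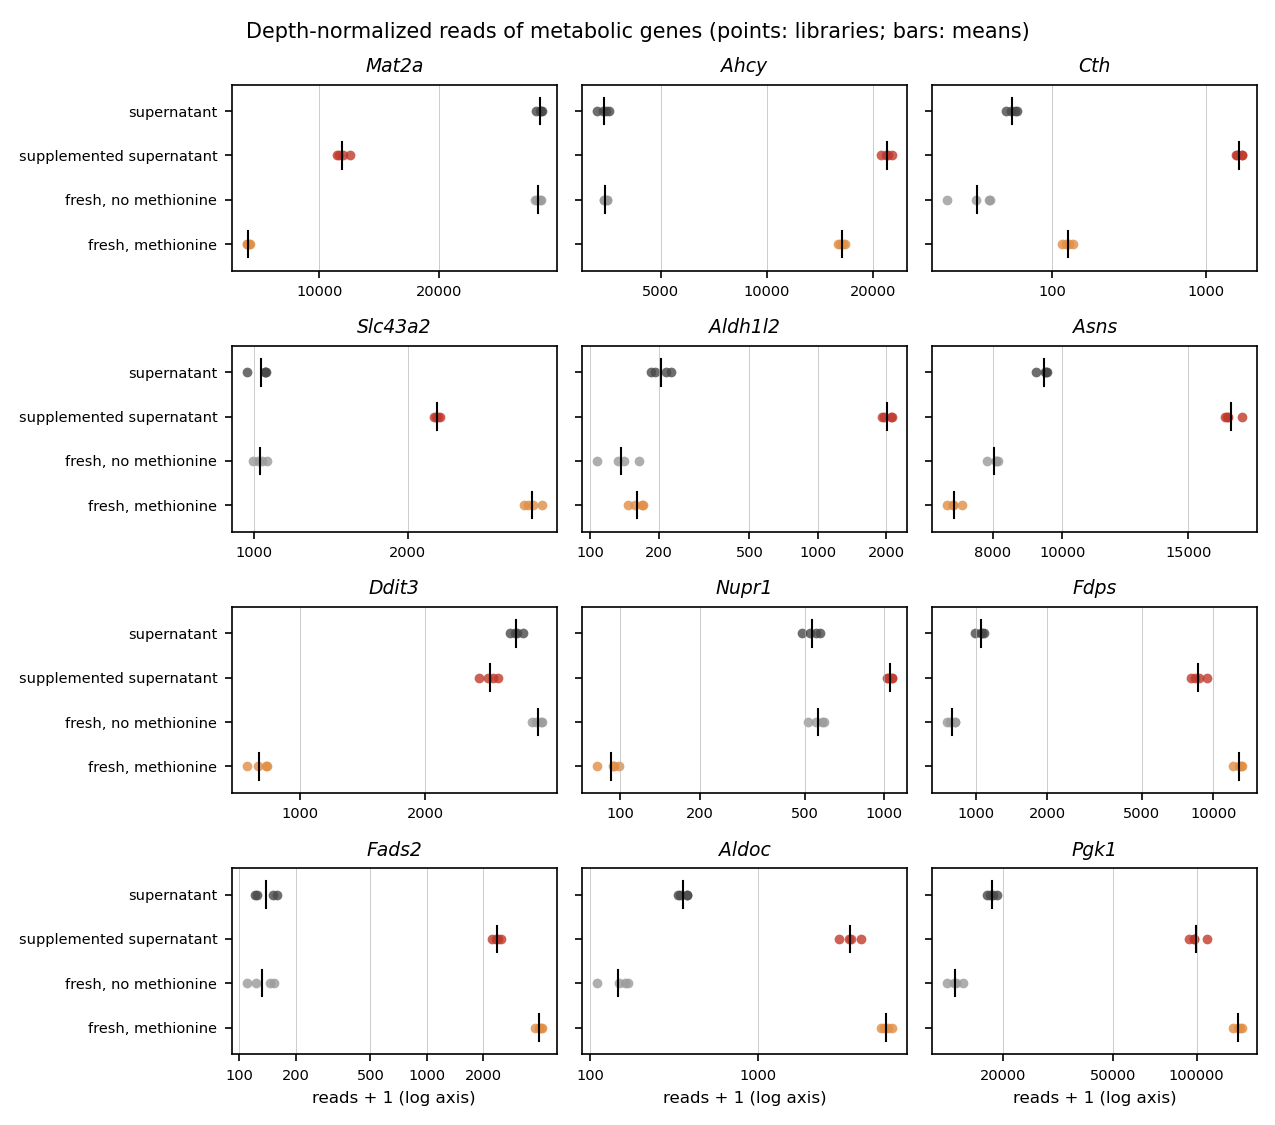
Depth-normalized level (horizontal log axis, value + 1) of 12 genes of methionine, sterol, sugar and stress metabolism in the 4 libraries of each of the 4 media. Each point is 1 library; Cth and Aldh1l2 are highest in supplemented supernatant, Fdps, Fads2 and Aldoc in fresh medium with methionine, and Mat2a in the media to which no methionine was added.

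The methionine effect in supernatant was set beside the effect in fresh medium, which rests on the other 8 libraries, so the effects share no library. In fresh medium 10628 genes (85.5%) were called. Across 12427 genes the log2 fold changes correlated with a Pearson r of 0.893 and Spearman rho of 0.878, given as a description since genes are not independent replicates. Of 9379 genes called in both, 8797 moved the same way (93.8%), and the effect was smaller in supernatant, with a median size of 0.495 against 0.567 in fresh medium. The difference of the effects, fitted as the interaction of methionine and medium in the 16 libraries, was called for 6546 genes (52.7%), 3445 more positive and 3101 more negative in supernatant, and 590 (4.75%) differed by at least 2-fold. From FPKM values, 750 genes were called for the difference, or 3942 with the replicate block.

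The lists differed in the sign of that difference. In supernatant 25 of 26 cholesterol, 19 of 22 glycolysis and 20 of 23 hypoxia genes were called more negative. The medians of these lists rose less in supernatant, with 1.33, 1.19 and 1.13 against 2.35, 2.31 and 1.95 in fresh medium. Not every member rose, since Bhlhe40 of the hypoxia list fell in both media, by more in supernatant (-1.51 against -0.84). The ATF4 list went the other way, with 33 of 35 genes called more positive in supernatant and medians of 0.87 and -0.19. Ribosome biogenesis had 31 of 35 genes called more positive, and its median fell by less in supernatant (-0.24) than in fresh medium (-0.73). In supernatant 23 of the 35 were called lower and 8 higher.

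The single genes of largest difference belonged to those groups in part. Cox6a2, a heart and muscle subunit of cytochrome c oxidase (chromosome 7 from 128205435 to 128206387), had 124, 163, 112 and 115 in supernatant and 442, 418, 436 and 355 in supplemented supernatant and 90.4, 148, 141 and 132 in fresh medium without methionine and 7.83, 8.47, 11.7 and 2.61 with it. It rose in supernatant and fell in fresh medium, a difference of 5.70 on the log2 scale (limma adjusted p 3.63e-16). Nupr1, a stress-induced chromatin protein, had 553, 571, 524 and 489 in supernatant and 1073, 1024, 1069 and 1033 in supplemented supernatant and 553, 592, 515 and 579 in fresh medium without methionine and 92.8, 80.4, 93.6 and 97.6 with it (difference 3.58). Angptl6 (3.46), Aldh1l2 (3.04), the actin-binding protein gene Avil (2.99) and Agap1 (2.94) differed in the same direction, and Agap1 was one that fell in both media, by less in supernatant. The rises of Angptl6 and Avil within supernatant (0.43 and 0.33) lost their calls in the FPKM table without the block, and that of Avil also with total-read scaling. Aldh1l2 was at 204 ± 19.3 in supernatant, 2013 ± 107 in supplemented supernatant, 135 ± 23.2 in fresh medium without methionine and 159.8 ± 11.4 with it (SD, n = 4). The opposite difference was largest for Itga7, an integrin (-2.74), the lactate exporter Slc16a3 (-2.26), the mitochondrial kinase Ak4 (-2.22), Cyp2s1 (-2.197) and Fam71f2 (-2.08). The first 4 of these rose in both media and by more in fresh medium, whereas Fam71f2 fell in supernatant and rose in fresh medium.

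**Figure D5:**
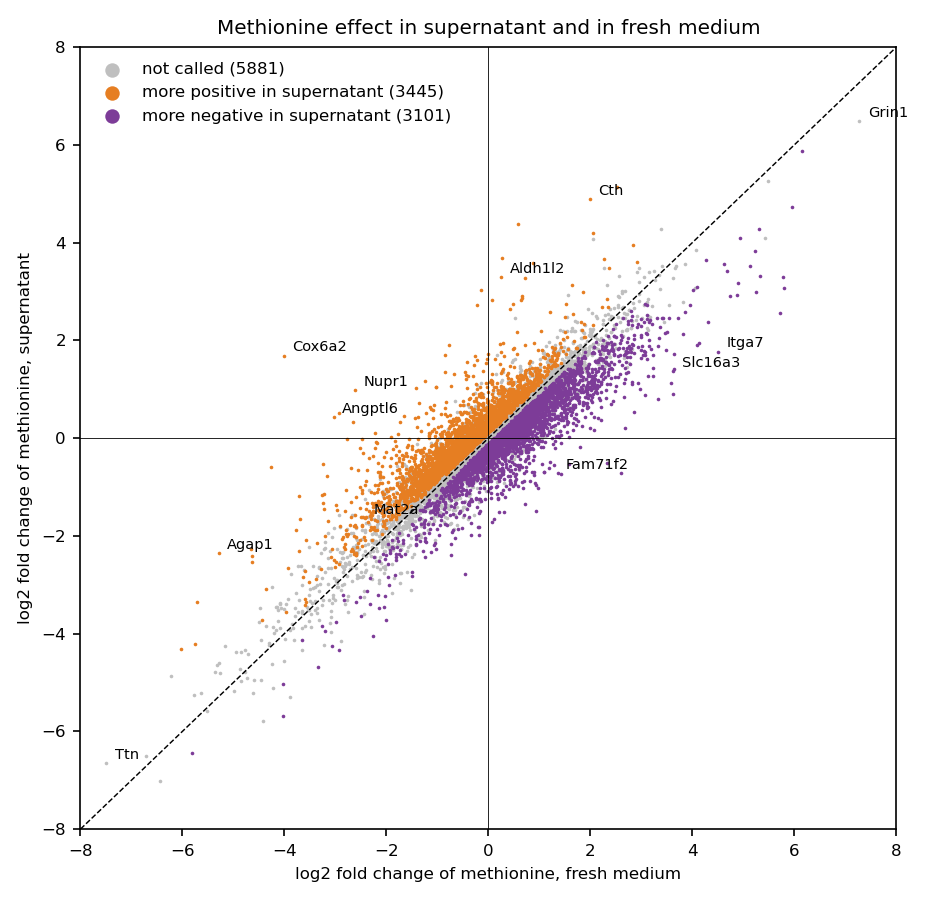
Log2 fold change after methionine addition in fresh medium (horizontal axis) against that in supernatant (vertical axis) for 12427 genes. Coloured points are the 6546 genes whose effects differed (orange more positive, purple more negative in supernatant), the dashed line marks equal effects, and Cox6a2, Nupr1 and Aldh1l2 lie above it and Itga7 and Slc16a3 below it.

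Gene structure was compared with the change over protein-coding genes with a GENCODE M21 model (GRCm38). The log2 fold change had a Spearman rho of -0.088 with transcript length and of 0.112 with transcript GC content over 11708 genes, described across genes only. Of the shortest quintile of transcripts 47.0% were called higher and 37.7% lower, and of the longest quintile 35.5% and 48.5%. For GC content the lowest quintile had 37.2% higher and 46.9% lower, and the highest quintile 48.1% and 35.8%. The median log2 fold change was 0.094 in the shortest and -0.097 in the longest quintile, and -0.082 in the lowest and 0.13 in the highest quintile of GC content. The part of either property in the results was not tested.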

How the data were processed

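RNA of CD8+ T cells, extracted with a Direct-zol kit per the labels' protocols, was sequenced in 16 libraries. The authors deposited a table of depth-normalized counts, a signal per gene for which the counting tool, annotation and strand are not given in the sources used here, and a table of FPKM values per library. The submitters' processing notes name FastQC 0.11.3, TopHat2 2.0.13, Bowtie2 2.2.1, Cufflinks, Cuffdiff 2.2.1 and the builds mm10 and GRCm38, with no role or order.

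The deposited depth-normalized values were whole reads divided by 1 factor per library: 100% of values in the 16 libraries came out whole within 0.001. Genes whose mean reached 10 over the 8 supernatant libraries were tested on log2(value + 1) in limma 3.58.1 under R 4.3.3, with a trend of the variance on the mean and Benjamini-Hochberg adjustment at 0.05. A fold change is on that scale and understates low genes. The effect in fresh medium and the interaction came from 1 model of the 16 libraries. The code was tested on simulated data in which few genes changed. That test cannot show how the scaling or the calls behave where most genes move. Alternatives were edgeR 4.0.16 and DESeq2 1.42.0 on the recovered reads, pseudocounts of 0.5 and 5, no filter or a mean of at least 100, quantile and total-read scaling, no trend, the 16-library fit, a replicate block, leaving out each library, and FPKM values as log2(FPKM + 0.1) with a mean of at least 0.5. The recovered reads gave 10396 called genes in edgeR and 10259 in DESeq2.

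Libraries with the same replicate number did not deviate together in the depth-normalized values (residual correlations of -0.029, 0.044, 0.018 and 0.025), so no block was used there. In the FPKM table they did (0.158, 0.121, 0.387 and 0.483), and both fits are given. No 2 libraries of a supernatant group agreed within sampling noise (chi-square per gene of 2.66 to 9.01).

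Gene positions and transcript lengths come from GENCODE M21 (GRCm38) and promoter windows from RefSeq, matched by symbol. Dates stand in place of 23 gene symbols in the deposited values.

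Named genes are the 10 highest and 10 lowest fold changes among genes whose mean reached 100 and whose groups did not overlap (clone names, small RNAs and pseudogenes left out), the 3 largest rises and falls of each list, the 6 highest and 6 lowest interactions, the 6 called genes of highest mean, up to 3 promoter examples a list, and a set of genes known from work on methionine and T cells. Any other genes named besides were chosen after their values were seen. Genes that the rule names and that are missing from the text are not reported here, though the list counts include them. The genes and lists were chosen with earlier results of these data known.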

Additional observations from a re-analysis of the deposited data

Results flagged for a closer look

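Within the groups of 4 libraries, a single library stood apart from the other 3 in 26 of 374 groups tested over the named genes (6.95%, a gap to the nearest library beyond Dixon's 95% critical value, which chance gives in about 1 in 20 groups). No library held most of them: replicates 0 to 3 had 3, 5, 2 and 4 in supernatant and 4, 1, 3 and 4 in supplemented supernatant.

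In supernatant, replicate 0 stood high for Atf3 (4174.7 reads against 3769 to 3834 in the others) and Bhlhe40 (31382 against 29054 to 29329) and low for Slc43a2 (966.29 against 1048 to 1057). Replicate 1 was low for Dars (3613.2 against 3782 to 3805), Ero1l (8285.4 against 8924 to 8985) and Slc4a4 (507.80 against 593 to 602) and high for Lair1 (154.80 against 116 to 122) and Wipi1 (25.800 against 16.7 to 18.2). Replicate 2 was high for Maf (567.96 against 506 to 515) and Plod2 (2864.5 against 2759 to 2763). Replicate 3 was low for Btla (1805.0 against 1850 to 1858), Dlst (6078.1 against 6309 to 6340), Impdh2 (4455.5 against 4555 to 4562) and Prf1 (1046.1 against 1160 to 1166). Except for Prf1, which was not called with all 8 libraries, each of these genes differed between the groups by more than the gap.

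In supplemented supernatant, replicate 0 was high for Aldh1l1 (75.038 against 55.4 to 58.6) and low for Btla (381.92 against 427 to 429.6), Gzmf (2.8861 against 10.3 to 11.3) and Slc7a11 (590.68 against 681 to 698). Replicate 1 was low for Foxo3 (909.33 against 1069 to 1100). Replicate 2 was high for Asns (17856 against 16911 to 17050), Eef1a1 (645800 against 613636 to 617070) and Tyms (2186.1 against 1939 to 1978). Replicate 3 was high for Klrb1c (283.11 against 242 to 245) and Mcl1 (7186.1 against 6786 to 6838) and low for Itgae (2279.6 against 2375 to 2390) and Pdcd1 (507.35 against 623 to 625).

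The effect of methionine differed between supernatant and fresh medium for 6546 genes in limma. Among the named ones it was more positive in supernatant for Cox6a2 by 5.70, Nupr1 by 3.58, Angptl6 by 3.46, Aldh1l2 by 3.04, Avil by 2.99 and Agap1 by 2.94 on the log2 scale. For Itga7 (-2.74), Slc16a3 (-2.26), Ak4 (-2.22), Cyp2s1 (-2.20) and Fam71f2 (-2.08) it was more negative.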

How the results depend on the processing

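The number of genes called in supernatant stayed within 1.5 times of 10381 under every alternative except the FPKM table without a block, from 8429 (FPKM with the replicate block) to 11280 (no filter), and leaving out 1 library gave 10148 to 10330. FPKM values without a block gave 5112 (2930 higher and 2182 lower) in supernatant, 6786 (3059 lower) in fresh medium and 750 (356 more positive and 394 more negative) for the difference of the effects. With the replicate block the FPKM table gave 8429, 9255 and 3942 (2015 and 1927). The same replicate block on the depth-normalized values gave 10366, 10609 and 6513. Why the FPKM table gave fewer was not tested.

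Of 187 named genes, 165 kept direction and side of the threshold under every alternative and 179 under every one but FPKM values. The FPKM table changed 17 of the 180 named genes it holds without a block and 7 with it. Direction changed only for genes that had not been called: Atf4 was at 0.0066 in the FPKM table with and without the block, Dot1l at -0.059 with total-read scaling, Hk2 at -0.057 with quantile normalization and -0.13 with total-read scaling, and Stat5a at -0.11 with total-read scaling. Leaving out 1 library put Hk2 between -0.064 and 0.061 and Stat5a between -0.0080 and 0.038. The 11 genes named for the difference of the effects kept their calls under each alternative run for it (total-read scaling, a pseudocount of 5, the replicate block, both FPKM fits and leaving out 1 library). Total-read scaling moved 36 of 37 list medians by more than the spread between libraries, as it moved the median of all genes to -0.14, and turned that of naive and memory factors from 0.082 to -0.050. Quantile normalization moved 28 medians, each FPKM fit 28, a mean of at least 100 moved 13, DESeq2 and a pseudocount of 5 moved 1 each, and leaving out some library moved 18. Genes of 10 to 100 reads had less precision, with 68.0% called against 88.6% above 1000 reads.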

Other observations

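Some genes went in opposite directions in the media. Of 9379 genes called in both, 582 had opposite signs, 330 of them higher in supernatant and lower in fresh medium and 252 the reverse. Amino acid genes were among the first kind. The glycine transporter gene Slc6a9 stood at 962, 982, 894 and 949 in supernatant, 3177, 3047, 3210 and 2950 in supplemented supernatant, 832, 889, 904 and 914 in fresh medium without methionine and 523, 533, 513 and 398 with it. It rose by 1.71 in supernatant and fell by 0.85 in fresh medium on the log2 scale. Slc7a5, the large neutral amino acid exchanger, fell by 0.86 in fresh medium, from 25036 ± 603 to 13852 ± 1092 reads (SD, n = 4), whereas it rose in supernatant. Gpt2, an alanine aminotransferase, rose by 1.32 in supernatant and fell by 0.68 in fresh medium. S1pr1, the receptor that lets T cells leave lymph nodes, did the reverse, with -0.59 in supernatant and 0.65 in fresh medium. The test of the difference of the effects called each of these 4 genes in limma (Slc6a9 2.56, Slc7a5 1.34, Gpt2 2.00 and S1pr1 -1.24). All 4 were chosen after their values were seen.

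Several gene families were examined after their values were seen and are described by counts. Of 325 tested zinc finger genes whose symbol starts with Zfp, most of them DNA-binding proteins, 225 fell and 52 rose (median -0.44, beside -0.0043 over all genes, and -0.52 in fresh medium). Of 12 cluster 1 histone genes 9 fell and 1 rose (median -1.30). Translation genes went up, with all 12 subunits of initiation factor 3 (median 0.65), 6 of 7 elongation factor genes (median 0.64) and 8 of 9 subunits of the chaperonin that folds actin and tubulin (median 0.72). Of 10 small nucleolar RNA host genes 7 rose and 1 fell (median 0.78). Killer lectin-like receptors were mixed, with 7 rises and 9 falls among 21. Klrc3 had 342, 331, 325 and 349 in supernatant and 27.9, 33.9, 24.5 and 43.3 in supplemented supernatant, while Klrb1c had 61.3, 48.1, 60.5 and 51.3 and 242, 244, 245 and 283. These receptors are close paralogs that may share reads.

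Among markers of other cells not given above, 6 NK cell markers summed to 1879 to 2037 reads in supernatant and 2403 to 2515 with methionine, most of it Eomes, which CD8 T cells also express. Dendritic cell markers summed to 105 to 139.6 and 97.7 to 122, and fibroblast markers to 29.6 to 45.6 and 15.4 to 31.7. Erythroid markers summed to 43.3 to 70.0 and 3.85 to 17.5. The globin gene listed as Beta-s was at 0 in all 8 libraries.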
